A study of Mus musculus with 4 samples.

Results

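The nuclear-encoded subunits of the mitochondrial respiratory chain were described in 4 RNA-seq libraries of human CD8+ T cells with high CD11a. Members were chosen by gene symbol, as names of the NDUF, SDH, UQCR, COX4 to COX8 and ATP5 families on the autosomes or the X chromosome. Of 97 matching rows, 11 with pseudogene names and 1 read-through row of SDHD were dropped, which left 85 entries of 83 symbols among 59490 genes. UQCR11 and NDUFA7 each stood on 2 entries that overlap and share exons, and both entries were kept. The name rule gave 37 entries of complex I, 4 of complex II, 10 of complex III, 17 of complex IV and 17 of complex V. NDUFA4, named for complex I, was placed in complex IV, of which it is a subunit.

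The cells were sorted from blood, and the patients received an antibody to PD-1, an inhibitory receptor of T cells. The antibody was given every 3 weeks, in cycles of 4 doses. The groups were responders before therapy, non-responders before therapy, responders after therapy and non-responders after therapy, with 1 library each. CD11a, the integrin chain encoded by ITGAL, is high on antigen-experienced T cells. The titles of both libraries from before therapy also carry a PD-1-positive tag that the later titles lack, and whether those cells were gated on PD-1 is not stated. The labels do not say whether a library holds 1 patient or a pool, nor whether earlier and later libraries came from the same patients. The organism label names mouse, whereas the deposited genes and coordinates are human on hg38. Library totals ran from 65500644 to 129773591 counts, and the mitochondrial genome took 3.37% to 5.43% of them.

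The respiratory chain of the inner mitochondrial membrane passes electrons from NADH through complex I, or from succinate through complex II, to ubiquinone. Complex III hands them on to cytochrome c and complex IV to oxygen, and ATP synthase, counted as complex V, uses the resulting proton gradient to make ATP. Complexes I, III, IV and V are each built from proteins of both genomes, whereas every subunit of complex II is encoded in the nucleus. In T cells, oxidative phosphorylation is known to be used at rest and in memory cells, and activated cells add glycolysis to it.

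Of the 85 entries, 77 (75 symbols) reached 5 CPM (counts scaled to library size by the trimmed mean of M-values, TMM) in at least 1 library. All 37 complex I entries and all 4 complex II entries did, against 9 of 10 in complex III, 11 of 17 in complex IV and 16 of 17 in complex V. The 8 entries below that level were UQCRHL, ATP5L2 and 6 complex IV isoforms. COX6A2 and COX7A1 are the heart and muscle forms, COX4I2 is known from lung, and COX6B2, COX7B2 and COX8C are known from testis. COX6A2 and COX8C had 0 counts in all 4 libraries, where a count of 0 allows up to 3 counts, or 0.0238 to 0.0452 CPM. COX4I2 had 13 and 22 counts in the responder and non-responder before therapy and 0 in both libraries after it. COX6B2 had 23 counts in the non-responder after therapy and 0 in the other libraries. COX7A1 had at most 10 counts and COX7B2 at most 8 in any library. The broadly expressed counterparts were all present, among them COX4I1, COX6A1, COX6B1, COX7A2 and COX8A. UQCRHL, a copy of UQCRH that lacks introns, had 62 to 108 counts, while UQCRH stood between 61.7 and 82.1 CPM.

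Levels were compared between the 77 entries that reached 5 CPM in at least 1 library. The scale was CPM per kilobase of the length that the files give, averaged over the 4 libraries. On that scale ATP5B, the catalytic beta subunit of ATP synthase, was the highest of these entries at 422. ATP5S, a coupling factor, was the lowest at 1.43. In complex I the range ran from 2.54 for NDUFV3, an accessory subunit, to 253 for NDUFA1, a small membrane-arm subunit. In complex II it ran from 5.38 for the membrane anchor SDHC to 48.3 for the other anchor, SDHD. Complex III spanned 10.4 for UQCRB to 109 for one UQCR11 entry. Complex IV, compared over 11 of its 17 entries, spanned 34.0 for COX7B to 153 for COX6A1. Among entries at 5 CPM this was the smallest fold between highest and lowest of the 5 complexes. These levels depend on the length given for each gene, which for SDHC was 14160 bases.

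**Figure D1:**
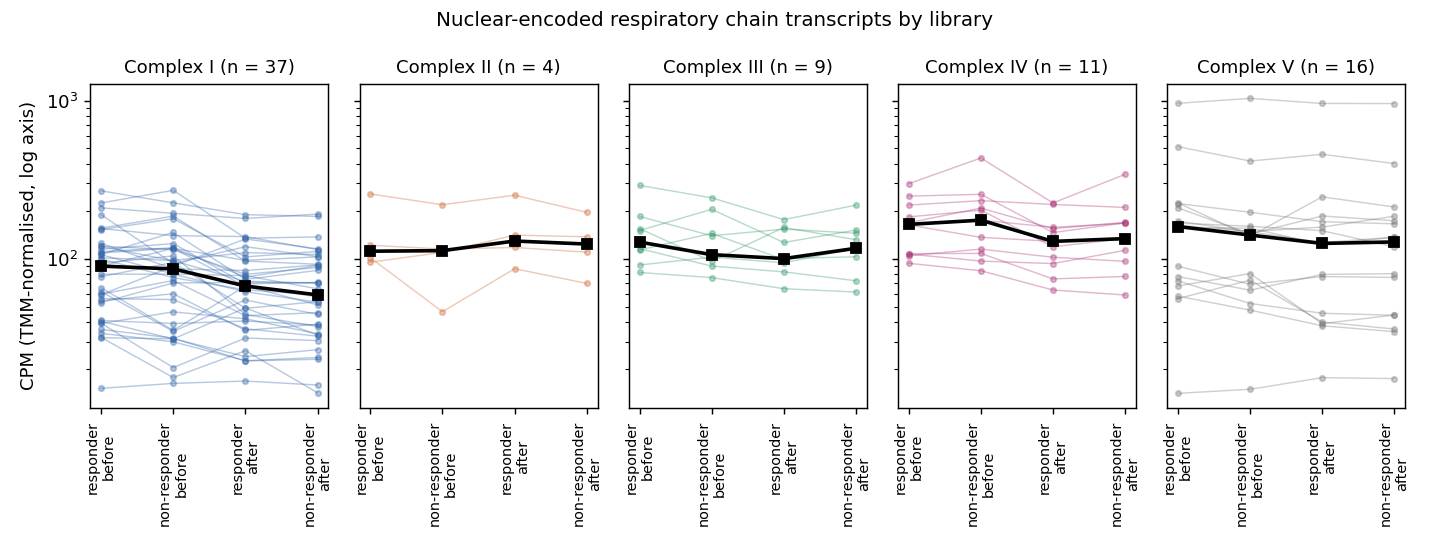
Level of each nuclear-encoded respiratory chain entry in each of the 4 libraries, as TMM-scaled CPM on a log axis, in 1 panel per complex. Thin lines join the points of a gene across libraries that have no order among them, and black squares are medians. The complex I median is lower in both libraries from after therapy (67.4 and 59.2 CPM) than in both from before it (90.0 and 86.5 CPM), and the complex II median is not (130 and 124 against 112 and 113 CPM).

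The plot of levels by library shows how close the responder and non-responder libraries of the same time were for most members. The median over all 77 expressed entries was 108 (responder) and 104 CPM (non-responder) before therapy, and 86.7 and 91.6 CPM after it. Summed over the nuclear-encoded members, the share of all counts was 1.09% and 1.01% before therapy and 0.841% and 0.833% after it. Both shares from after therapy lay below both from before it.

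The sort was checked on CD3D, CD3E, CD3G, CD8A, CD8B and ITGAL, which summed to 4427 and 3590 CPM before and 4580 and 3220 CPM after therapy. Markers of other cells did not stay level between the libraries. Markers of monocytes and neutrophils summed to 141 and 177 CPM before and 1910 and 8936 CPM after therapy. Epithelial markers summed to 105 CPM in the responder before therapy and to at most 4.94 CPM elsewhere. Platelet markers summed to 26.7 and 62.3 CPM before and 15.9 and 166 CPM after therapy, and dendritic cell markers to 60.2 CPM in the non-responder after therapy and at most 5.05 CPM elsewhere. B cell markers lay between 49.9 and 87.1 CPM and red cell markers between 2.86 and 21.6 CPM. Their part in the ratios of respiratory chain genes was not tested.

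The first question was whether responders and non-responders differed. Each pair of libraries was compared as a log2 ratio of TMM-scaled CPM with a prior count of 0.5, and 95% intervals are exact conditional binomial intervals that cover counting error only. With 1 library per group, a pair allows no test. Where values of a time are given together, the responder comes first, and where ratios are, the one from before therapy. The median log2 ratio of responder to non-responder over the 77 entries was 0.07 before therapy and 0.04 after it, against 0.10 and 0.08 over all genes that reached 5 CPM in 1 or both libraries. The responder was higher for 44 of 77 entries before therapy, where 55.3% of all genes were higher, and for 44 of 77 after it, where 56% were. Before therapy 2 members, SDHC among them, exceeded 2-fold in favour of the responder (12.3% of all genes), and 0 members were at least 2-fold lower (8.51%). After therapy 0 members were at least 2-fold higher (5.97%) and 0 at least 2-fold lower (8.74%). At 1.5-fold, 8 members were higher in the responder before therapy (25% of all genes) and 1 lower (17.8%), and after it 1 was higher (18.1%) and 1 lower (15.2%). Across the 77 members the ratios of the pairs had a Pearson correlation of 0.49 and a Spearman correlation of 0.43, where all genes gave 0.12 and 0.36. The pairs share no library, but genes are not independent replicates and the correlation is a description.

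The complexes were not alike in the responder to non-responder ratio. The median was −0.09 before and −0.08 after therapy in complex IV, the only complex whose median was below 0 at both times under each of the 4 scalings run. It was 0.15 and 0.20 in complex II, and 0.20 and 0.03 in complex V. Complex I stood at 0.02 and 0.04, and was −0.03 before therapy with DESeq2 size factors. Complex III stood at 0.26 before therapy and −0.04 after it. Both responder libraries were above both non-responder libraries for 16 of 77 members, or 20.8%, against 23.2% of all genes. They were below both for 6 members, or 7.79%, against 15.4% of all genes. The 16 higher members comprised 7 in complex I, 3 in complex II, 2 in complex III, 4 in complex V and 0 in complex IV. The 6 lower members comprised 3 in complex III and 3 in complex IV, and with library size as the only scaling they were 2, COX4I1 and UQCRB.

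**Figure D2:**
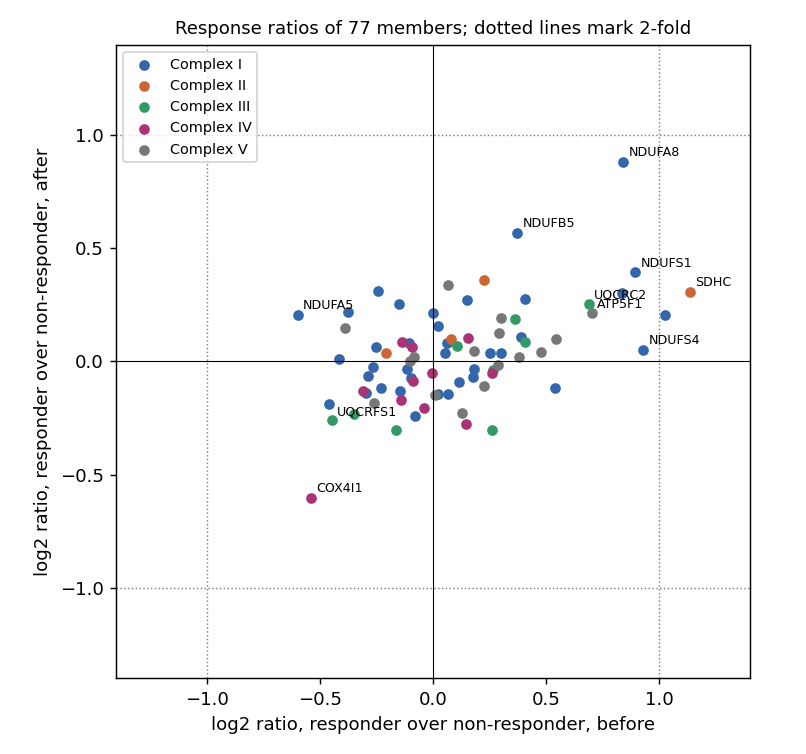
Log2 ratio of responder to non-responder for each of the 77 expressed entries, before therapy on the x axis and after therapy on the y axis and coloured by complex. Dotted lines mark 2-fold. NDUFA8 (0.84 and 0.88) and COX4I1 (−0.54 and −0.60) lie farthest out along the diagonal, while SDHC (1.13 and 0.31) is beyond 1 on the x axis only.

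In complex I, the 7 core subunits that carry the electron path in the matrix arm had median ratios of 0.39 before and 0.11 after therapy, against 0.02 and 0.04 for the other 30 entries. NDUFS1, the largest iron-sulfur subunit, stood at 65.7 and 35.3 CPM before therapy and 67.4 and 51.2 CPM after it. The low library was the non-responder before therapy, and the responder was higher at both times. NDUFS7 and NDUFS8, which hold the last iron-sulfur clusters of the path, were also higher in the responder in both pairs, with ratios of 0.40 and 0.28 for NDUFS7 and 0.39 and 0.11 for NDUFS8. NDUFS3 had ratios of −0.46 and −0.19, and NDUFV1, which binds FMN and accepts electrons from NADH, had −0.26 and −0.03. NDUFV2, its iron-sulfur partner, had −0.10 and −0.07. By sign the core subunits thus split into 4 higher and 3 lower in the responder, in the same way at both times. The ratio of NDUFV1 after therapy, however, had a counting interval that includes 0 (−0.058 to 0.005).

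Among the accessory subunits of complex I, NDUFA8 was the member with the highest ratio after therapy. The gene (ENSG00000119421) lies on chromosome 9 at 122144058 to 122159819 of hg38. It stood at 31.9 (responder) and 17.8 CPM (non-responder) before therapy, and at 26.3 and 14.3 CPM after it. Both responder libraries lay above both non-responder libraries, 1.79-fold before and 1.84-fold after therapy, with log2 ratios of 0.84 (0.74 to 0.94) and 0.88 (0.80 to 0.97). NDUFS4, an accessory subunit whose loss causes Leigh syndrome, stood at 39.2 and 20.6 CPM before therapy and 31.6 and 30.5 CPM after it. Its ratio was 0.93 before therapy, whereas the 0.05 after therapy had a counting interval that includes 0 (−0.01 to 0.12). NDUFB5, a membrane-arm subunit, had ratios of 0.37 and 0.57. NDUFA5 had the lowest ratio of complex I before therapy, with 59.4 (responder) and 89.9 CPM (non-responder) and a ratio of −0.60, and was higher in the responder after it (134 and 116 CPM, 0.21). NDUFS5 had the lowest ratio after therapy, at −0.24 (76.6 and 90.7 CPM), beside −0.08 before it.

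Complex II is the enzyme that the chain shares with the citric acid cycle. SDHC (ENSG00000143252, chromosome 1 at 161314257 to 161375340), a membrane anchor, stood at 102 (responder) and 46.3 CPM (non-responder) before therapy, and at 86.7 and 70.0 CPM after it. Both responder libraries were above both non-responder libraries, with ratios of 1.13 (1.07 to 1.19) and 0.31 (0.27 to 0.35). SDHD, its partner in the membrane, did not follow it, with ratios of −0.21 and 0.04. SDHA, the flavoprotein that oxidises succinate, stood at 257 and 220 CPM before and 253 and 197 CPM after therapy, with ratios of 0.23 and 0.36. The pseudogene rows of SDHA held 16.1% as many counts as the gene, and reads that the copies share cannot be told apart. SDHB, the iron-sulfur subunit, had ratios of 0.08 and 0.10.

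In complex III, UQCRC2 and UQCRFS1 lay on opposite sides. UQCRC2, a core protein of the matrix side, stood at 155 (responder) and 96.5 CPM (non-responder) before therapy, and at 158 and 132 CPM after it (0.69 and 0.26). UQCRFS1, the Rieske iron-sulfur protein, stood at 151 and 206 CPM before and 127 and 152 CPM after therapy (−0.45 and −0.26). Its pseudogene rows held 9.68% as many counts as the gene. The other core protein, UQCRC1, changed side, with 291 and 243 CPM before therapy and 177 and 219 CPM after it (0.26 and −0.30). UQCRB and UQCRQ, small subunits of the membrane part, had the responder lower at both times, with ratios of −0.16 and −0.30 for UQCRB and −0.35 and −0.23 for UQCRQ. One UQCR11 entry had ratios of 0.41 and 0.09, and the other, whose span reaches into MBD3, 0.26 and −0.04. UQCR10 had 0.36 and 0.19.

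In complex IV, 3 entries were higher and 8 lower in the responder in each pair, where 55.3% and 56% of all genes were higher. COX4I1 (ENSG00000131143, chromosome 16 at 85798633 to 85807044), the nuclear-encoded subunit through which ATP is known to regulate the enzyme, stood at 299 (responder) and 434 CPM (non-responder) before therapy, and at 226 and 343 CPM after it. Both non-responder libraries lay above both responder libraries, 1.45-fold before and 1.52-fold after therapy, with log2 ratios of −0.54 (−0.56 to −0.52) and −0.60 (−0.63 to −0.58). COX6C stood at 169 and 210 CPM before and 155 and 170 CPM after therapy, so that its groups were separate by a small margin. COX7A2 stood at 165 and 176 CPM before and 158 and 168 CPM after therapy, and again the groups were narrowly separate. COX5B, which binds zinc, had ratios of −0.14 and −0.17, and its groups overlapped because both libraries from before therapy were higher. COX5A had −0.14 and 0.09, COX6A1 −0.04 and −0.21, and NDUFA4 −0.09 and 0.06. COX7C and COX8A had the highest ratios before therapy, 0.26 and 0.16, and stood at −0.05 and 0.10 after it. COX7B had 0.15 and −0.28.

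In complex V, 12 of 16 entries were higher in the responder before therapy (55.3% of all genes) and 11 of 16 after it (56%). ATP5F1, the b subunit of the stalk that holds the catalytic head still, stood at 226 (responder) and 139 CPM (non-responder) before therapy, and at 247 and 213 CPM after it (0.70 and 0.21). ATP5C1, the gamma subunit that turns inside the head, stood at 210 and 144 CPM before and 187 and 174 CPM after therapy (0.55 and 0.10). For both genes the non-responder before therapy was the lowest library. ATP5A1, the alpha subunit of the head, had ratios of 0.30 and 0.19. ATP5B, its catalytic partner, stood at 962 and 1034 CPM before and 960 and 959 CPM after therapy (−0.10 and 0.00), and varied little between libraries. ATP5D, the delta subunit of the rotor, had the lowest ratio before therapy (−0.39) and 0.15 after it. ATP5I and ATP5L, small subunits of the membrane part, had −0.26 and −0.18, and 0.13 and −0.23. The 3 genes that encode the same mature c subunit of the ring differed among themselves: ATP5G1 had ratios of 0.48 and 0.04, ATP5G2 0.01 and −0.15, and ATP5G3 0.07 and 0.34.

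Response and time were tested in 1 fit over all 4 libraries, with 1 residual degree of freedom and with any interaction counted as error. For response, edgeR's quasi-likelihood test with Benjamini-Hochberg adjustment called 0 of 80 members tested and 0 of 24113 genes, or 0% of them. The lowest adjusted p of a member was 0.558. At an unadjusted p under 0.05 it held 2 members, COX4I1 and NDUFA8, beside 8.79% of all genes. The fitted log2 ratio was −0.59 ± 0.168 (SE, 2 libraries against 2) for COX4I1 and 0.84 ± 0.267 for NDUFA8. Their unadjusted edgeR p was 0.0256 and 0.0359, and their adjusted edgeR p 0.558 and 0.559. DESeq2 called 0 of 79 members for response, where it called 2.17% of genes as higher and 2.31% as lower in responders. These p-values rest on a spread among 4 libraries that the fit estimates in part across all genes. That spread may be technical.

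The 13 subunits encoded in the mitochondrial genome were set beside the nuclear-encoded ones as a ratio of summed counts, which no scaling between libraries can alter. This ratio was chosen after the values were seen. There were 2.65 mitochondrial counts per nuclear count in the responder and 4.11 in the non-responder before therapy, and 2.82 and 4.11 after it. Both non-responder libraries lay above both responder libraries, 1.55-fold before and 1.46-fold after therapy. With 2 libraries against 2, an exact two-sided permutation test cannot go below p = 0.333, so the ratio is given as a description. The non-responder had the higher ratio in each complex that has subunits of both genomes. In complex I it was 1.58-fold higher before and 1.51-fold after therapy, in complex III 1.72-fold and 1.23-fold, in complex IV 1.29-fold and 1.33-fold, and in complex V 2.02-fold and 1.48-fold. On the mitochondrially encoded side the median log2 ratio of responder to non-responder was −0.67 before therapy with 13 of 13 genes lower, and −0.59 after it with 12 of 13 lower, all but MT-ND6. The nuclear-encoded medians of 0.07 and 0.04 lay near 0, and 55.3% and 56% of all genes were higher in the responder.

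**Figure D3:**
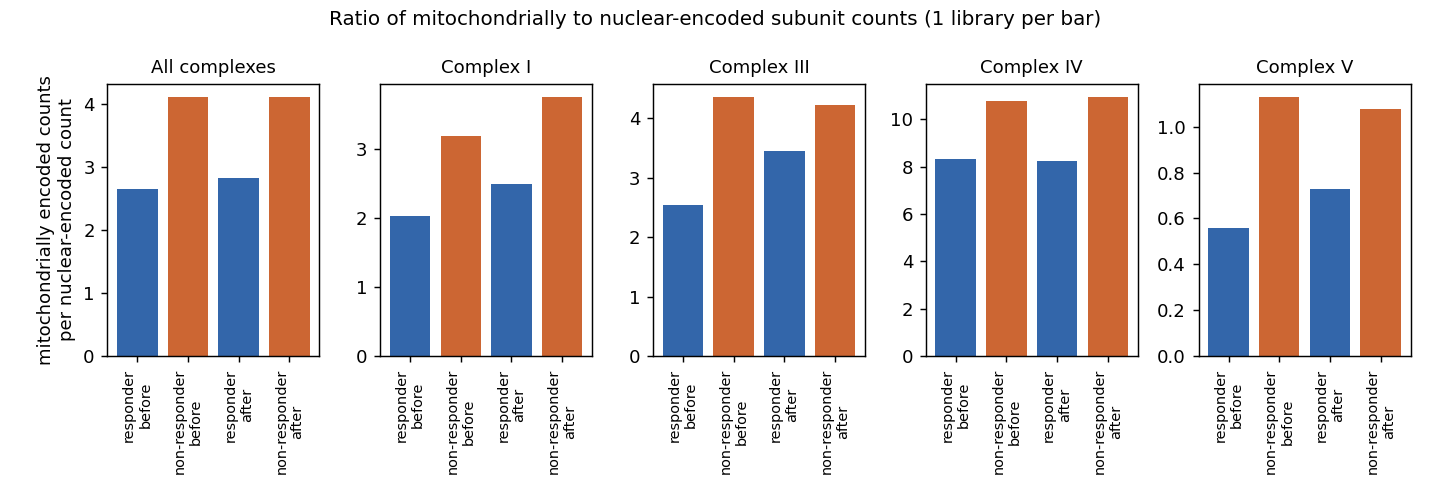
Counts of mitochondrially encoded subunits per count of nuclear-encoded subunits in each of the 4 libraries (1 bar per library, axes from 0 and different in each panel), for the whole chain and for complexes I, III, IV and V. Non-responder libraries are above the responder library of the same time in every panel, as with 4.11 against 2.65 before and 4.11 against 2.82 after therapy for the whole chain.

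The second question was whether levels differed between libraries from before and after therapy. Most members were lower after therapy. The median log2 ratio of after to before was −0.35 in responders and −0.25 in non-responders, while over all genes it was 0.08 and 0.11. Only 14 of 77 members were higher after therapy in responders, where 55% of all genes were, and 21 of 77 in non-responders, where 55.4% were. Both later libraries lay below both earlier ones for 43 of 77 members, or 55.8%, against 19.6% of all genes. They lay above both for 6 members (26.7% of all genes), namely ATP5H, ATP5S, NDUFA10, NDUFA5, NDUFB4 and SDHD. The ratios in responders and non-responders, which share no library, had a Pearson correlation of 0.67 across the 77 members, against 0.47 over all genes. By complex the medians were −0.45 and −0.33 in complex I, −0.35 and −0.30 in complex IV, −0.27 and −0.15 in complex III, and −0.19 and −0.11 in complex V. Complex II had the highest medians, at −0.04 and 0.13, and 0 of its 4 genes had both later libraries below both earlier ones. In complex I 24 of 37 did. With library size only, the complex II medians were −0.15 and 0.06. On that scaling 1 of its 4 genes had both later libraries below, against 26 of 37 in complex I. The complex II genes are 2462 to 14160 bases long and none lies on chromosome 19. Ratios by length and for that chromosome are given below, and their part in this contrast was not tested.

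**Figure D4:**
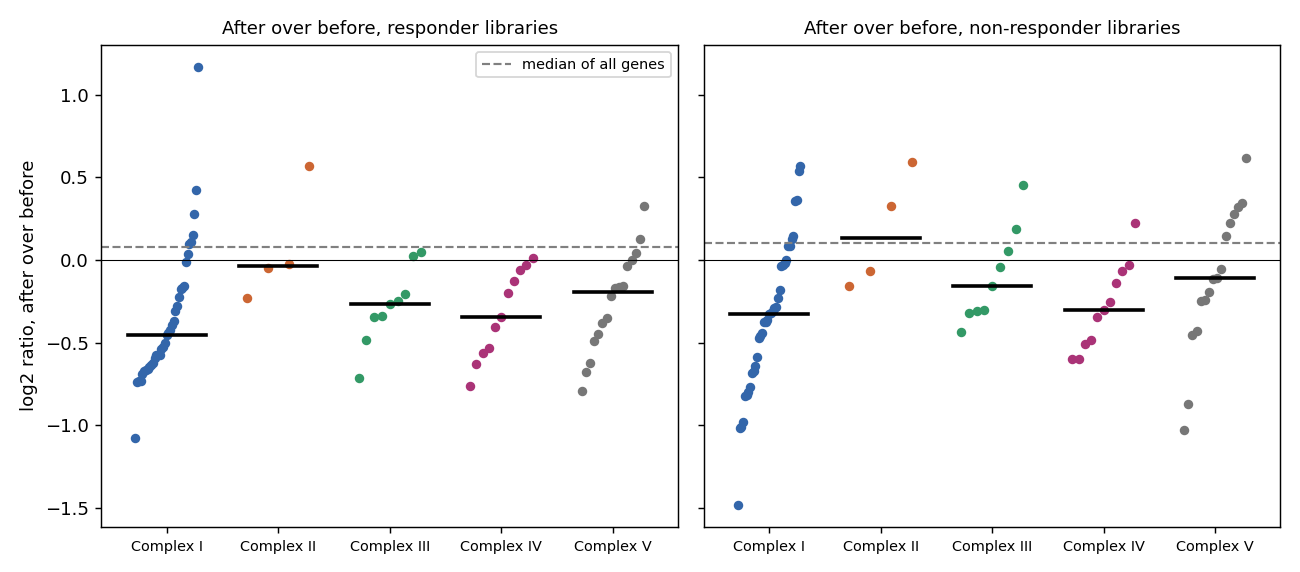
Log2 ratio of after to before therapy for each of the 77 expressed entries, by complex along the x axis and sorted within it, in responder libraries (left) and non-responder libraries (right), with bars for the median of a complex and a dashed line for that of all genes. Most points of complexes I, III, IV and V lie below 0, and NDUFB7 is the lowest in both panels (−1.08 and −1.48). NDUFA5 is the highest on the left (1.17), but on the right, at 0.36, it lies below the highest point of 0.61.

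At least 2-fold differences were few. In responders NDUFB7 was lower (4.61% of all genes were) and NDUFA5 higher (8.66%). In non-responders ATP5D, NDUFA13, NDUFB7 and NDUFC2 were lower (7.56%) and 0 members higher (16.3%). These genes were named after their values were seen. At 1.5-fold, 18 members were lower (13.4% of all genes) and 1 higher (21.4%) in responders, and 16 were lower (18.2%) and 2 higher (28%) in non-responders. NDUFB7 (ENSG00000099795, chromosome 19 at 14566078 to 14572062), an accessory subunit on the intermembrane side of complex I, stood at 94.0 and 104 CPM in the responder and non-responder before therapy, and at 44.5 and 37.4 CPM after it. Both later libraries were far below both earlier ones, 2.11-fold in responders and 2.79-fold in non-responders. NDUFA13, also known as GRIM-19 for its part in interferon and retinoic acid induced cell death, stood at 156 and 186 CPM before and 96.8 and 92.5 CPM after therapy. NDUFV1 stood at 226 and 271 CPM before and 135 and 138 CPM after therapy. All 3 had separate groups, with the later libraries close to each other. NDUFC2 stood at 90.0 and 117 CPM before and 66.9 and 57.6 CPM after therapy, and ATP5D at 56.1 and 73.4 CPM and then 39.9 and 36.0 CPM. NDUFA5, in the matrix arm of complex I, went the other way, from 59.4 and 89.9 CPM before to 134 and 116 CPM after therapy.

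For time, edgeR's test called 0 of 80 members and 0 genes in all (0%), and the lowest adjusted p of a member was 0.409. At an unadjusted p under 0.05 it held 17 members, or 21.2%, all lower after therapy. The share of all genes was 11.3%, which counts both directions. The fitted log2 ratio was −1.30 ± 0.224 (SE) for NDUFB7, −0.88 ± 0.183 for NDUFV1 and −0.87 ± 0.196 for NDUFA13, each over 2 libraries against 2. DESeq2 called these 3 members and no other as lower after therapy, with adjusted p of 0.00115, 0.0247 and 0.0355, where it called 2.24% of all genes as lower and 5.31% as higher.

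Several measures moved together with time. Members of at most 1500 bases, 24 in number, had median ratios of −0.53 in responders and −0.41 in non-responders, and the 53 longer ones −0.22 and −0.11. The same order held over all genes, with −0.26 and −0.24 for short genes and 0.12 and 0.15 for longer ones. Across members the Spearman correlation of the ratio with length was 0.40 in responders and 0.33 in non-responders. The 12 expressed members on chromosome 19 had medians of −0.51 and −0.46, and all genes of that chromosome −0.20 and −0.12. Within each class of length the members' median was below that of all genes. Of the 12 markers of monocytes and neutrophils, 11 were higher after therapy in responders (55% of all genes) and 11 in non-responders (55.4%). FCGR3B, whose row overlaps FCGR2B, was lower in both (log2 ratios of −0.15 and −0.39). In every library 0 of the 12 were at 0 counts. The PD-1 tag in the titles also divides the libraries by time and cannot be told apart from it. The part of length, of other cells and of gene position in the ratios of members was not tested. In a bulk sample, fewer cells of a type and less RNA per cell cannot be told apart.

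**Figure D5:**
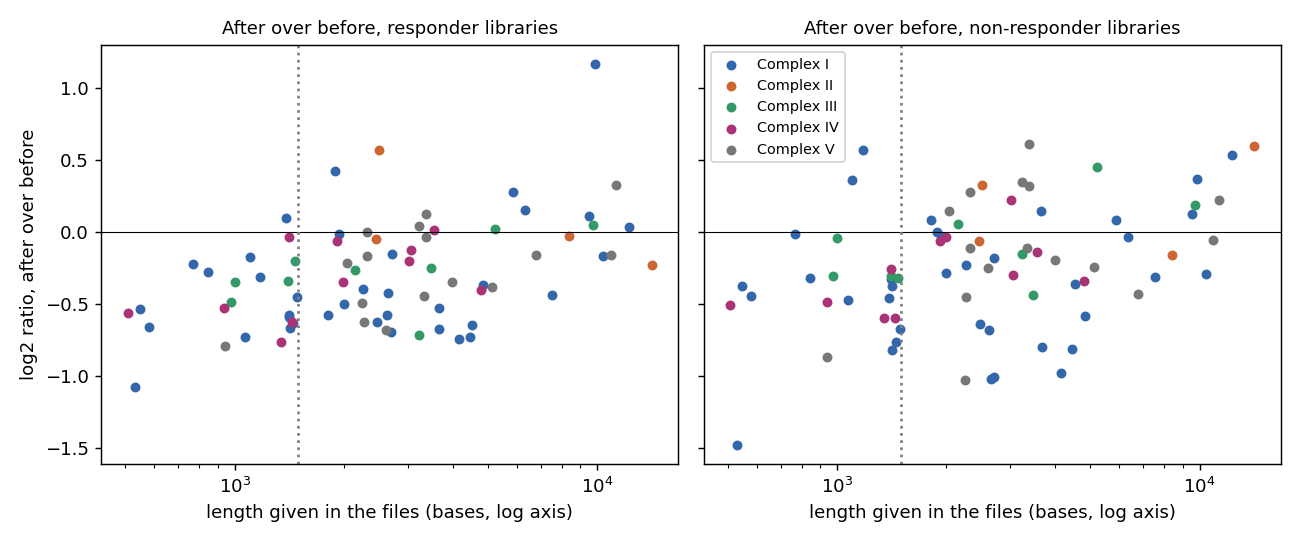
Log2 ratio of after to before therapy against the length in bases that the files give (log axis), for the 77 members coloured by complex, in responder libraries (left) and non-responder libraries (right), with a dotted line at 1500 bases. Members of at most 1500 bases lie lower (medians −0.53 and −0.41) than longer members (−0.22 and −0.11).

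Other genes of the pathway gave a partly different picture, and edgeR's test called 0 genes in every list. Assembly factors are proteins that build the complexes but are not part of them. Of these, 44 were expressed, and their median ratio of responder to non-responder was 0.34 before and 0.12 after therapy. Of the 13 factors of complex I, 8 were higher in the responder before therapy (55.3% of all genes) and 11 after it (56%). Their medians were 0.59 and 0.28, against 0.10 and 0.08 over all genes. ACAD9 stood at 42.5 and 17.9 CPM before and 48.8 and 29.5 CPM after therapy. The 20 factors of complex IV had medians of 0.17 and −0.12. COX15, which makes heme a for that complex, stood at 32.6 and 14.8 CPM before and 45.2 and 18.6 CPM after therapy, above in both responder libraries. SCO2, a copper chaperone whose row overlaps TYMP, stood at 28.2, 29.0 and 27.2 CPM and then at 125 CPM in the non-responder after therapy. SDHAF1, an assembly factor of complex II, stood at 28.3 and 10.5 CPM before and 13.3 and 7.95 CPM after therapy.

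Of the 14 citric acid cycle enzymes, 10 were higher in the responder at each time, where 55.3% and 56% of all genes were. Their medians were 0.40 and 0.24, against 0.10 and 0.08 over all genes. IDH3A, a catalytic subunit of NAD-dependent isocitrate dehydrogenase, stood at 47.7 and 13.5 CPM before and 48.6 and 53.4 CPM after therapy, so that the non-responder before therapy alone was low. The 12 expressed regulators of mitochondrial biogenesis had medians of −0.32 and 0.25. In the responder 5 were higher and 7 lower before therapy, and 9 higher and 3 lower after it, where 55.3% and 56% of all genes were higher. PPARGC1B, with the largest absolute mean ratio of the list, stood at 3.37 and 5.86 CPM before and 2.28 and 14.1 CPM after therapy. TFB1M, a methyltransferase of the mitochondrial ribosomal RNA whose row overlaps TIAM2, stood at 24.1 and 5.14 CPM before and 16.3 and 12.1 CPM after therapy. The 7 other subunits and carriers had medians of 0.05 and 0.07. CYCS, the cytochrome c that links complexes III and IV, stood at 113 and 151 CPM before and 161 and 196 CPM after therapy, lower in the responder at both times. CYC1, the cytochrome c1 of complex III, stood at 191 and 197 CPM before and 104 and 109 CPM after therapy, and so was lower in both later libraries. Its mean ratio of responder to non-responder, −0.05, was the smallest of that list in absolute value, so CYC1 was not named for it. COX7A2L, a factor of supercomplex assembly, stood at 32.8 CPM in the earlier non-responder library and between 70.5 and 78.0 CPM in the other libraries.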

How the data were processed

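Libraries were made with a SMARTer Ultra Low kit from 1 ng of RNA and read in pairs of 101 bases, per the labels' protocols. The submitters' processing notes name bcl2fastq 1.8.4, TopHat2 and the build hg38. Values are raw counts for each Ensembl gene, per the file headers. How reads were counted, with which annotation and strand setting, is not given in the sources used here. Reads of genes that overlap, on either strand, therefore cannot be separated. Tests used 59490 of 64253 rows, without 4146 on other contigs and 617 that are sex-informative.

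One treatment label places every sample after a cycle of therapy, and the group label, which puts 2 libraries before it, was followed. Tools were edgeR 4.0.16 (TMM, filterByExpr, quasi-likelihood, two-sided), limma 3.58.1 and DESeq2 1.42.0 in R 4.3.3. The fit was also run on simulated data, with changes larger than any seen among members at 5 CPM. That run does not cover changes of the members' size. The median half-width of a counting interval was 0.0393 to 0.0454 on the log2 scale. PCR copies without molecular identifiers are not independent molecules, so intervals and floors cover counting error only. At 5 CPM, 38 entries had a pseudogene row and 38 overlapped another row with over 5% of their counts.

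The members and lists were chosen with earlier results of these data known. Named genes are core subunits, tissue isoforms, the 2 highest and 2 lowest ratios per complex in each response pair, the highest and lowest level per complex, members at least 2-fold apart, and up to 3 genes per other list. A gene that this rule would name is not reported here, though counts and medians include it. Alternatives were other scalings, filters, prior counts, folds, entries and tools, leaving out each library, and leaving out members with pseudogene or overlapping rows.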

Additional observations from a re-analysis of the deposited data

How the results depend on the processing

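No paired analysis was possible because each group has 1 library, so that the additive fit with time as a term takes the place of a block. Of the recomputed medians, ratios and counts 117 were classed as the same and 29 as moved. No median over all members changed sign, whereas counts and ratios of counts cannot do so. Among the medians by complex, that of complex I for response before therapy was 0.02 with TMM and −0.03 with DESeq2 size factors. With DESeq2 size factors the responder to non-responder median before therapy was 0.0201 and 1 member was at least 2-fold higher, and with library size only that median was 0.12. The after to before medians were −0.46 in responders and −0.31 in non-responders with library size only, and −0.47 and −0.32 when mitochondrially encoded counts were also left out of it. Without members that have a pseudogene row, those medians were −0.45 and −0.33, the responder to non-responder median after therapy was 0.0829, 1 member was at least 2-fold higher in responders before therapy, and 0 were at least 2-fold higher after therapy in responders. That set gave non-responder to responder ratios of mitochondrial to nuclear counts of 1.58 before and 1.497 after therapy.

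With any entry that has a count in both libraries, 3 members were at least 2-fold lower in responders before therapy and 2 lower after therapy in responders. At a 1.5-fold threshold, 8 members were higher and 1 lower in responders before therapy (25% and 17.8% of all genes), and 1 higher and 1 lower after it (18.1% and 15.2%). At that threshold 18 members were lower after therapy in responders (13.4% of all genes), and 2 were higher and 16 lower in non-responders (28% and 18.2%). In alternatives that were added after the data were seen, members overlapped by another row were left out, or both entries of UQCR11 and NDUFA7 were counted. Without the overlapped members, the after to before median in non-responders was −0.16 with 2 members at least 2-fold lower, and the mitochondrial to nuclear ratios were 1.58 and 1.48. With both entries counted, the ratio before therapy was 1.56. The cause of these moves was not tested beyond the smaller or larger set of entries and the lower threshold that they use.

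For time, DESeq2 called 3 members where edgeR and limma-voom called 0. Over all genes DESeq2 called 950 for response and 1554 for time. For time edgeR called 2 genes with no low-count filter and 3 among genes with at least 5 CPM, and limma-voom called 2. Leaving out each library in turn, in a model with a single term, gave 0 to 0 members called for response and for time, where a group of 1 library is assumed to vary like the other. Counting intervals were narrow against the after to before medians of −0.35 and −0.25, with median half-widths of 0.0401 and 0.0438. They were not narrow against the response medians of 0.07 and 0.04, where the half-widths were 0.0454 and 0.0393. Some response ratios, such as that of NDUFV1 after therapy, had an interval that included 0. The spread within a group could not be measured with 1 library each.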
